A study of Mus musculus with 4 samples.

Results

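Nlrp4a, Nlrp4b, Nlrp4c, Nlrp4e, Nlrp4f, Nlrp4g, Nlrp9a, Nlrp9b, Nlrp9c and Nlrp14 are 10 genes of the mouse NLR family that are known for expression in the oocyte. They were chosen by symbol, and 9 of the 10 had values in the gene table of 20171 genes. Nlrp4g, which the annotation lists as a transcribed pseudogene, had none. The isoform table held 183 isoforms of these 9 genes among 68012.

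NLR proteins combine a nucleotide-binding NACHT domain with leucine-rich repeats, and the Nlrp branch adds an N-terminal pyrin domain. Some Nlrp proteins assemble inflammasomes, which activate inflammatory caspases. In rodents, duplication has given several Nlrp4 and Nlrp9 genes, and most of these are transcribed in the growing oocyte and stored as maternal RNA. Nlrp14 is a maternal gene required for early development in the mouse. Maternal RNA of the mouse is largely degraded by the late 2-cell stage, when the embryo's own genome takes over.

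Single cells were read as full-length cDNA with a cell barcode and a unique molecular identifier (UMI) on each molecule, on the PacBio platform. Cells came from hormone-injected C57BL/6J females aged 6 to 8 weeks, mated with DBA/2NCrl males except for the oocytes, while the sample labels give the strain as DBA/2J x C57BL/6J. Counted in hours after hCG, unmated MII oocytes were taken at 20, zygotes at 22 to 24, early 2-cell embryos (E2C) at 30 to 32, late 2-cell embryos (L2C) at 46 to 48, 4-cell embryos at 54 to 56, 8-cell embryos at 68 to 70, 16-cell and 32-cell embryos at 78 to 80 and early blastocysts at 88 to 90. No other genotype or treatment is given for any group, and 5 mouse embryonic stem cells (mESC) of the male line E14 Tg2A were included. The column names gave the oocyte, zygote or embryo of 121 cells: 10 oocytes, 9 zygotes, 5 E2C embryos (10 cells), 6 L2C embryos (11 cells), 5 4-cell embryos (17 cells), 4 8-cell embryos (26 cells) and 4 16-cell embryos (38 cells). These 43 were the replicates, with the mean over the cells of an embryo as its value, so p-values measure the spread between oocytes or embryos. The 22 32-cell, 13 blastocyst and 5 mESC cells name no embryo and are given without a test.

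All levels are in copies per 100,000 UMIs of a cell, 1 copy being 1 molecule regardless of its length. They are shares of the RNA read, so a loss of a transcript and a gain of other RNA cannot be told apart. Depth fell with stage: oocytes held 166731 to 255836 gene UMIs each, zygotes 194072 to 389775, E2C cells 31037 to 105534, L2C cells 17971 to 67963 and 4-cell cells 4985 to 43842. L2C embryo 1 was a single cell of 17971 UMIs. Summed oocyte markers (Zp1, Zp2, Zp3, Gdf9, Bmp15, Mos and Oosp1) stood at 1732 to 2405 copies in oocytes, 478 to 723 in E2C cells and 41.4 to 155 in L2C cells. The sum did not keep falling after that. It was 20.1 to 249 copies in 4-cell, 6.36 to 140 in 8-cell, 0 to 274 in 16-cell and 6.29 to 37.8 in 32-cell cells. Blastocyst cells held 73.5 to 220 copies of these markers and mESC 54.6 to 112. The 6 cumulus and granulosa cell markers in the table summed to at most 9.81 copies in an oocyte.

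In the GRCm38 annotation, 8 of the 9 measured genes lie on chromosome 7: Nlrp4c at chr7:6045161-6105150, Nlrp4b at chr7:10687789-10730168, Nlrp9b at chr7:19991465-20073306, Nlrp4e at chr7:23301192-23362277, Nlrp9c at chr7:26322473-26403700, Nlrp4a at chr7:26435113-26476142, Nlrp9a at chr7:26535023-26575615 and Nlrp14 at chr7:107166990-107198102. Nlrp9c, Nlrp4a and Nlrp9a are neighbours, with Nlrp9c on the minus strand and the other two on the plus strand. Nlrp4f lies at chr13:65177111-65205977 on the minus strand.

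The coding sequences of the members resemble each other to different degrees. They are shown here by their first 60 coding bases in GRCm38, read 5′ to 3′ from the longest annotated coding transcript, with the start codon in capitals.
Nlrp4a: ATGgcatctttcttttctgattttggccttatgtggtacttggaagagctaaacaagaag
Nlrp4c: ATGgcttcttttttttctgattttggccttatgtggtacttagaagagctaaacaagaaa
Nlrp4e: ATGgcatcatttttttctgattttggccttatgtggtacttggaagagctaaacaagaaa
Nlrp4f: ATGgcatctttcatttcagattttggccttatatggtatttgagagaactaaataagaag
Nlrp9a: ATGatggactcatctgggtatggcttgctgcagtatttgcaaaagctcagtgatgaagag
Nlrp9b: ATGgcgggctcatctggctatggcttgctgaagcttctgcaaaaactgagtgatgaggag
Nlrp9c: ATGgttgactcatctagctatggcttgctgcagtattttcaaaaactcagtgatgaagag
Nlrp14: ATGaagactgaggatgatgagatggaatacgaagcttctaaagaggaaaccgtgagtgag

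Over the aligned coding sequence, Nlrp4c and Nlrp4e were the closest pair at 93.9% identity, followed by Nlrp9a and Nlrp9c at 87.7%, Nlrp4a and Nlrp4c at 86.3%, Nlrp4a and Nlrp4e at 86.2%, and Nlrp9a and Nlrp9b at 84.2%. Nlrp4b shared 78.4% to 79.4% with the other Nlrp4 genes. Between Nlrp4, Nlrp9 and Nlrp14, identity was 60.9% to 63.5%. The values of Nlrp4c are low, and whether reads of a similar copy were assigned to it, or its reads to a copy, was not tested.

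RefSeq promoters of build GRCm38.p6 were matched for 8 members: Nlrp4a, Nlrp4b, Nlrp4c, Nlrp4e, Nlrp4f, Nlrp9a, Nlrp9b and Nlrp9c. The 100 bases before the RefSeq start of the neighbouring Nlrp9a and Nlrp9c, and of Nlrp4a and Nlrp4b, are shown because these windows resemble each other within a subfamily; capitals mark CCAAT on the strand shown.
Nlrp9a, chr7:26534923-26535022 (+): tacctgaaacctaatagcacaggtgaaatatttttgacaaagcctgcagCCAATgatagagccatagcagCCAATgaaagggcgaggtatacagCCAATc
Nlrp9c, chr7:26403701-26403800 (-): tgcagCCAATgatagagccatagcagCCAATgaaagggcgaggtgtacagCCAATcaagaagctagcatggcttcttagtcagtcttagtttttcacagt
Nlrp4a, chr7:26435514-26435613 (+): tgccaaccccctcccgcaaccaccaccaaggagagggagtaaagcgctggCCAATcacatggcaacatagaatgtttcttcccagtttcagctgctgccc
Nlrp4b, chr7:10687693-10687792 (+): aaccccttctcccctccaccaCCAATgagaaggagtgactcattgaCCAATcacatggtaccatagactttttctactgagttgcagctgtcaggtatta

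The Nlrp9a and Nlrp9c promoter windows in the RefSeq table, which begin further upstream than the stretches printed and end just inside the transcript, were 96.1% identical over 203 aligned bases, with an unbroken shared run of 106. Those of Nlrp4a, Nlrp4b and Nlrp4c shared 76.1% to 79.3% at their best-aligned starts. CCAAT, searched on both strands, was found in the windows of 6 of the 8 genes (all but Nlrp4f and Nlrp9b). Nlrp4a and Nlrp4b have more than 1 window, and 7 of the 10 windows held it, against 33.8% of 32851 RefSeq promoters. This motif was picked after the windows had been read. Of the motifs listed earlier, the E-box CANNTG lay in 9 of the 10 windows, from 7 of the 8 genes, and in 66.2% of all promoters. TAATTG lay in 2 windows and 7.17% of promoters, TAATTA in 1 and 4.84%, TATAAA in 1 and 12.4%, and GGGCGG in 1 and 32.7%. Each match describes these windows only.

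Transcripts with a start codon began close to the RefSeq start in Nlrp4b, Nlrp9a and Nlrp9c. Within 100 bases of it began 238 of 238 such UMIs of Nlrp4b, 205 of 215 of Nlrp9a and 113 of 113 of Nlrp9c. For Nlrp4f and Nlrp9b the most used 5′ end lay at -254 and -3973 bases from the RefSeq start, and for Nlrp4e at -9817, where 19 UMIs carried the start codon. The most used end of Nlrp9a lay 1 base after the RefSeq start, that of Nlrp9c at -81 and that of Nlrp4b at -25. All 100 printed bases of Nlrp9a thus precede its most used end, with 3 of 3 CCAAT, whereas only the first 19 of Nlrp9c do, with 1 of 3, and the first 75 of Nlrp4b, with 2 of 2. For Nlrp4a, 14 of 33 UMIs with a start codon began within 100 bases of the RefSeq start printed. Another 19 of 33 began within 100 bases of a further RefSeq start, chr7:26435113, whose window held no CCAAT.

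In oocytes the 9 genes together made up 228 to 350 copies per 100,000 (mean 284 ± 44.3, SD, n = 10). Zygotes held 243 to 393 copies (302 ± 55.0, n = 9) and E2C embryos 378 to 469 (429 ± 36.9, n = 5). The sum was 14.7 to 77.9 copies in L2C embryos (38.8 ± 25.01, n = 6) and 14.6 ± 8.47 (n = 5), 9.14 ± 4.04 (n = 4) and 10.5 ± 5.50 (n = 4) in 4-cell, 8-cell and 16-cell embryos. Every E2C embryo was thus above every L2C embryo. Nlrp9c contributed 38.0% of the sum in oocytes, Nlrp4f 23.2%, Nlrp4b 12.6%, Nlrp4a 11.6% and Nlrp9a 7.07%. Nlrp14, Nlrp4e, Nlrp9b and Nlrp4c each contributed under 4%: 3.34%, 1.98%, 1.95% and 0.239%.

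**Figure D1:**
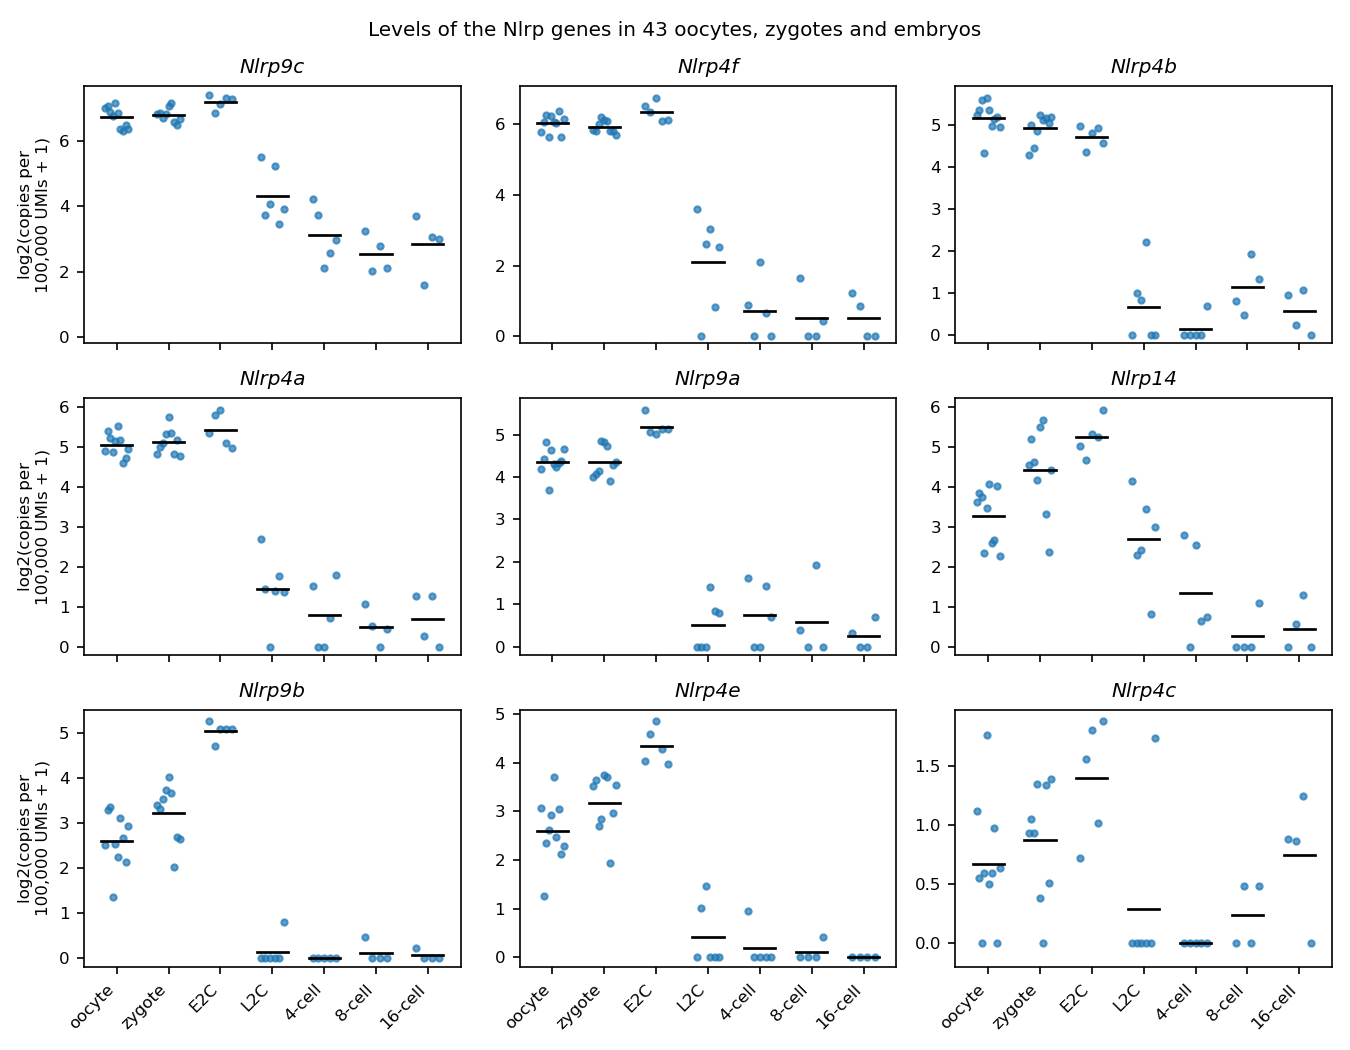
Level of each of the 9 genes (copies per 100,000 UMIs, log axis with 0 shown at its foot) by stage, with 1 point for each oocyte, zygote or embryo and the stage means marked by lines. All genes but Nlrp4c stand above their L2C values in every E2C embryo, and Nlrp9c keeps the highest mean at every stage (108 copies in oocytes, 7.09 at the 16-cell stage).

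Nlrp9c had the highest mean at every stage from oocyte to 16-cell. It is a member of the Nlrp9 subfamily, in which Nlrp9b is known as a sensor of viral RNA in the gut. Its level was 78.4 to 143 copies in oocytes (median 112), 88.9 to 144 in zygotes (median 113) and 168, 117, 141, 160.9 and 157 in the 5 E2C embryos. The ranges of these stages overlapped. L2C embryos held 9.94 to 44.5 copies (median 14.9), and the highest of these, embryo 1, rested on 8 UMIs.

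Nlrp9a had 11.9 to 27.3 copies in oocytes (median 19.3), 14.1 to 27.8 in zygotes (median 18.6) and 47.1, 32.1, 31.5, 33.9 and 33.9 in E2C embryos. Nlrp9b held 1.55 to 9.26 copies in oocytes (median 5.08), 3.08 to 15.4 in zygotes (median 9.54) and 37.4, 25.2, 33.1, 33.1 and 32.9 in E2C embryos. Both were higher in every E2C embryo than in any oocyte or zygote. In L2C embryos Nlrp9a reached at most 1.66 copies and Nlrp9b was found as 1 UMI in 1 of 6 embryos.

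Within Nlrp4, a subfamily in which human NLRP4 is described as a regulator of innate immune signalling, Nlrp4f was the most abundant. It stood at 49.0 to 81.8 copies in oocytes (median 65.9), 51.5 to 72.7 in zygotes (median 56.3) and 90.1, 80.7, 107, 67.5 and 68.6 in E2C embryos. Nlrp4b held 19.1 to 49.2 copies in oocytes (median 36.0), 18.6 to 36.5 in zygotes (median 32.2) and 30.4, 19.4, 27.1, 29.4 and 22.7 in E2C embryos. For these genes the stages up to E2C overlapped.

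Nlrp4a was close to Nlrp4b in oocytes, at 23.4 to 44.99 copies (median 32.3). Zygotes held 26.4 to 53.2 copies of Nlrp4a (median 33.5) and the E2C embryos 40.2, 54.7, 60.4, 33.4 and 30.8. Nlrp4e stood at 1.39 to 12.1 copies in oocytes (median 4.87), 2.82 to 12.4 in zygotes (median 10.4) and 15.4, 23.0, 27.8, 18.5 and 14.6 in E2C embryos, so that its E2C embryos lay above all oocytes and zygotes. Nlrp4c was near the limit of detection, with 14 UMIs in all oocytes and a highest embryo mean of 2.70 copies at E2C.

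Nlrp14 was the most variable of the abundant members in zygotes. Its level was 3.87 to 15.8 copies in oocytes (median 10.8), 4.23 to 50.2 in zygotes (median 22.3) and 31.7, 24.5, 39.2, 37.1 and 59.9 in E2C embryos. The E2C embryos did not overlap the oocytes but did overlap the zygotes. In L2C embryos it was 0.784 to 16.7 copies (median 5.69). Embryo 1 gave the highest of these from 3 UMIs.

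In the order of oocyte means, Nlrp9c stood first with 108 ± 23.9 copies and Nlrp4f next with 65.2 ± 11.3. Nlrp4b (36.2 ± 8.76) and Nlrp4a (33.0 ± 6.95) differed by less than their spread, as did Nlrp4e (5.59 ± 2.95) and Nlrp9b (5.58 ± 2.48). Nlrp9a (20.0 ± 4.33), Nlrp14 (9.67 ± 4.67) and Nlrp4c (0.7003 ± 0.699) took the places between and after them (n = 10 for each). At E2C the order had Nlrp14 (38.5 ± 13.3), Nlrp9a (35.7 ± 6.45) and Nlrp9b (32.3 ± 4.40) within their spread of each other and above Nlrp4b (25.8 ± 4.66, n = 5 for each).

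Adjacent stages were compared by limma on log2(copies + 1) over 11682 genes, and a gene was called at a fold change over 1 on the log2 scale with an unadjusted p under 0.01, the limits of the study. Adjusted p-values are Benjamini-Hochberg values of this limma fit over all genes tested. Each comparison shares a stage with the next. Fold changes below are on the log2(copies + 1) scale, on which changes of low genes come out smaller.

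From oocyte to zygote, Nlrp14 alone among the 9 genes was called, while 2.92% of all genes were called higher and 0.325% lower. Its mean of 9.67 ± 4.67 copies in 10 oocytes stood against 25.2 ± 15.4 in 9 zygotes, a log2 fold change of +1.29 (SE 0.275, adjusted p = 5.9e-04). The sequencing run, taken from the number after each cell barcode in the study's cell lists, moved with this result. In run 1, 5 oocytes averaged 10.3 copies and 4 zygotes 24.7. The only oocyte of run 2 had 15.8 copies and its zygotes had 44.4 and 50.2. In run 3, 4 oocytes averaged 7.36 copies and 3 zygotes 11.2. With run as a block the log2 fold change was +0.99 (SE 0.294, adjusted p = 0.055 by limma) and the call was lost. Within run 1 it was +1.24 (adjusted p = 0.084, still called), and within run 3 +0.43 (adjusted p = 0.87).

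Nlrp9b and Nlrp4e had log2 fold changes of +0.68 (SE 0.210, adjusted p = 0.021) and +0.69 (SE 0.220, adjusted p = 0.026) from oocyte to zygote in the limma fit, below the limit on fold change. In run 3 alone Nlrp9b was at 5.74 copies in 4 oocytes and 4.62 in 3 zygotes. The other 6 genes lay between -0.26 (Nlrp4b) and +0.21 (Nlrp4c). The median over the 9 genes was 0.08 and over all genes 0.07. No member had every zygote above or below every oocyte, and of all genes 0% were wholly higher and 0.0342% wholly lower.

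From zygote to E2C, 2 of the 9 genes were called higher, against 4.52% of all genes, and 0 lower by limma, edgeR and DESeq2 (0 also at an unadjusted p under 0.05), against 2.75%. Of all called genes 62.2% were higher, and 40.8% by edgeR. Nlrp9b was 9.17 ± 3.93 copies in zygotes and 32.3 ± 4.40 in E2C embryos, a log2 fold change of +1.76 (SE 0.288, adjusted p = 8.3e-06). Nlrp4e was 8.70 ± 3.44 copies in zygotes and 19.8 ± 5.52 in E2C embryos, at +1.13 (SE 0.302, adjusted p = 0.0065). The Nlrp4e call lay close to the limit on fold change. By edgeR on the recovered UMIs its fold was 0.99, below the limit, and 0.98 without E2C embryo 3, while by DESeq2 it was 1.11. Nlrp9a reached +0.83 (SE 0.249, adjusted p = 0.016) and was not called. The median over the 9 genes was 0.48 and over all genes 0.11.

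In 3 of the 9 genes (Nlrp4e, Nlrp9a and Nlrp9b) every E2C embryo was above every zygote, where 2.86% of all genes behaved so, and 0 were wholly below, against 1.56%. Against oocytes this held for 4 of 9 (these and Nlrp14), where the background was 6.3%, and 0 were wholly below, against 3.14%. At E2C the mean of Nlrp9b was 579% of its oocyte mean, that of Nlrp14 398%, Nlrp4e 355% and Nlrp9a 178%, whereas Nlrp4b stood at 71.2%. Nlrp9c, Nlrp4a and Nlrp4f lay between 127% and 137%. The members therefore did not keep a common ratio to each other between the oocyte and the E2C embryo. Markers of the burst of transcription at the 2-cell stage (Zscan4c, Zscan4d, Zscan4f, Tcstv1, Tcstv3, Usp17la and Usp17lc) summed to 4.38 to 43.7 copies in oocytes, 11.01 to 75.5 in zygotes and 18.4 to 101 in E2C cells, and their part in these values was not tested.

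From E2C to L2C all 9 genes were called lower, against 22.8% of all genes, and 25.6% of all genes were called higher. The largest change was that of Nlrp9b, from 32.3 ± 4.40 to 0.123 ± 0.3003 copies, a log2 fold change of -4.89 (SE 0.396, adjusted p = 4.6e-16). Nlrp9a changed by -4.67 (SE 0.343), Nlrp4f by -4.60 (SE 0.378), Nlrp4a by -4.18 (SE 0.346), Nlrp4b by -4.07 (SE 0.346), Nlrp4e by -3.85 (SE 0.415), Nlrp9c by -3.15 (SE 0.337) and Nlrp14 by -2.79 (SE 0.519), with adjusted p-values of 6.0e-06 or lower. Their median with Nlrp4c was -4.07, against 0.03 over all genes. In the 8 genes other than Nlrp4c every E2C embryo was above every L2C embryo, and 14.6% of all genes were wholly lower at L2C.

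Nlrp4c was the weakest of these calls, with 1.77 ± 0.899 copies in E2C embryos and 0.391 ± 0.958 in L2C embryos (-1.01, SE 0.362, adjusted p = 0.014). It was lost without L2C embryo 1 (-0.99) and without E2C embryo 2, 3 or 5. The other 8 were called by edgeR and DESeq2 as well, neither of which included Nlrp4c. Relative to its E2C mean, 14.9% of Nlrp9c and 18.5% of Nlrp14 was found at L2C, and 0.379% to 5.85% of Nlrp4a, Nlrp4b, Nlrp4e, Nlrp4f, Nlrp9a and Nlrp9b.

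**Figure D2:**
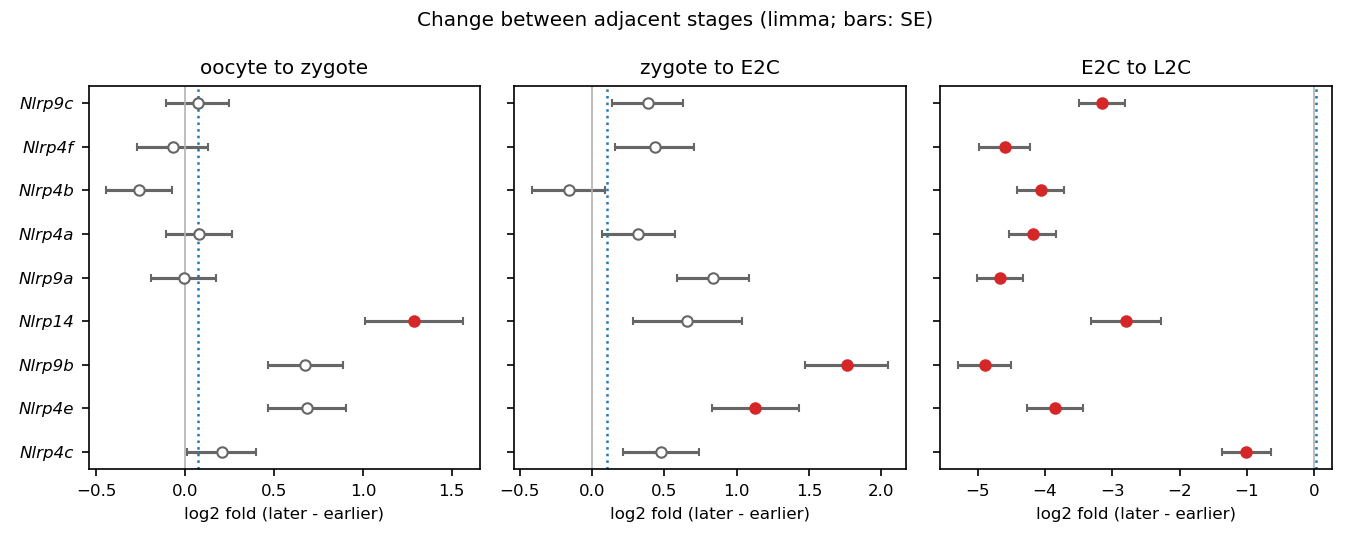
Log2 fold change of each of the 9 genes between adjacent stages on the log2(copies + 1) scale, with bars of 1 SE from the limma fit and called genes marked. The bars of oocyte to zygote and zygote to E2C lie near or above 0, and those of E2C to L2C run from -1.01 (Nlrp4c) to -4.89 (Nlrp9b).

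Sister blastomeres of E2C embryos held these transcripts at like levels, that is, as like shares of their UMIs. In the 5 E2C pairs the sum of the 9 genes was 1.008 to 1.17 times as high in the higher sister as in the lower one. The UMIs themselves could differ more, and the sisters of E2C embryo 5 had 134 and 381. Sisters were not compared with cells of other embryos. In the 5 L2C pairs the ratio was 1.13 to 2.37, with 8 to 34 UMIs in a cell, and the highest ratio was that of 8 against 14 UMIs.

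After the late 2-cell stage Nlrp9c was the member called by limma. It was 9.94 to 44.5 copies in L2C embryos and 17.8, 12.5, 3.36, 4.90 and 6.81 in the 5 4-cell embryos, so that the stages overlapped. The log2 fold change was -1.08 (SE 0.381, adjusted p = 0.11 by limma), where 4.28% of all genes were called lower and 2.41% higher. No member had every 4-cell embryo below every L2C embryo, which 0.728% of all genes had. The call was lost without 4-cell embryo 3 (-0.97), 4 (-0.86) or 5 (-0.98), without L2C embryo 1 (-1.003) and with the isoforms of the gene summed (-1.01). Nlrp4f and Nlrp14 had changes of -1.13 (SE 0.428) and -1.16 (SE 0.588) by limma and were not called. Nlrp4f was called lower by edgeR (-2.15, adjusted p = 0.067) and DESeq2 (-2.11, adjusted p = 0.079), and both also called Nlrp9c. From 4-cell to 8-cell (4.47% of all genes higher, 10.5% lower) and from 8-cell to 16-cell (1.9% and 1.46%), 0 of the 9 genes were called by limma, and 0 of the 8 fitted by edgeR and DESeq2. At an unadjusted p under 0.05 from 4-cell to 8-cell, Nlrp4b was higher by limma and edgeR and Nlrp14 lower by edgeR and DESeq2. The levels then rested on 0 to 11 UMIs of a gene at a stage, other than Nlrp9c, and small changes were not detectable at this depth. No member was wholly lower from 4-cell to 8-cell (6.14% of all genes), nor wholly higher or lower from 8-cell to 16-cell (1.84% and 1.69%).

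Nlrp9c remained detectable through the blastocyst. It had at least 1 UMI in 17 of 26 cells at the 8-cell stage, 26 of 38 at the 16-cell stage, 8 of 22 at the 32-cell stage and 13 of 13 blastocyst cells, in which it ranged from 1.78 to 14.6 copies (median 7.53, 47 UMIs in all). Nlrp4c was found in 8 of 13 blastocyst cells (0 to 11.96 copies, median 2.12, 14 UMIs in all), more cells than any other member but Nlrp9c. Thinned to 5000 UMIs a cell, these blastocyst shares were 33.9% for Nlrp9c and 12.02% for Nlrp4c. In the same blastocyst cells the oocyte markers summed to 73.5 to 220 copies (median 132), and any link between them was not tested. The remaining 7 genes were found in 1 to 5 of 13 blastocyst cells. All 9 genes were at 0 in the 5 mESC, which allows a level of up to 2.90 copies per 100,000 (3 UMIs over all 5 cells, counting error only), so that a level like that of most members in the later embryos would not have been seen.

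Most isoforms of these genes lacked the annotated start codon. The structures were classed as FSM (all splice junctions of an annotated transcript, 22 isoforms), ISM (a part of them, 106), NIC (known sites in a new combination, 40) and NNC (a new site, 15). By the annotated codons of the longest coding transcript, 32 of the 183 held both the start and the stop codon, 15 the start only, 110 the stop only and 26 neither. In UMIs of oocytes and zygotes together, the share in isoforms with the start codon was 30.0% for Nlrp9b (217 UMIs), 28.7% for Nlrp14 (620), 23.1% for Nlrp4b (937), 22.8% for Nlrp9a (720), 14.8% for Nlrp4f (1419), 6.19% for Nlrp4e (210), 3.12% for Nlrp4a (928) and 2.32% for Nlrp9c (4048). Nlrp4c had 9 isoform UMIs, all with the stop codon only.

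Over the 9 genes together the pooled start codon share was 11.5% in oocytes (461 of 4010 UMIs), 9.96% in zygotes and 10.0% at E2C. It varied widely within a stage: 0.338% to 18.3% between oocytes, 2.03% to 14.8% between zygotes and 3.80% to 16.6% between E2C embryos. The shares were not fitted by run. Pooled over all genes the start codon share was 74.4%, 74.9% and 68.8% at the same stages, and the median of the 3490 genes with 20 or more UMIs in oocytes was 70.2%. The lower quartile of those genes was 11.8%, above the oocyte values of Nlrp4a (2.89%) and Nlrp9c (2.52%), and Nlrp4e was close to it (9 of 75 UMIs). An incomplete cDNA and a shorter transcript look the same here, and the part of either was not tested. The genes were not matched for length, and the leading Nlrp9c isoform has the junctions of a noncoding transcript, described below.

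**Figure D3:**
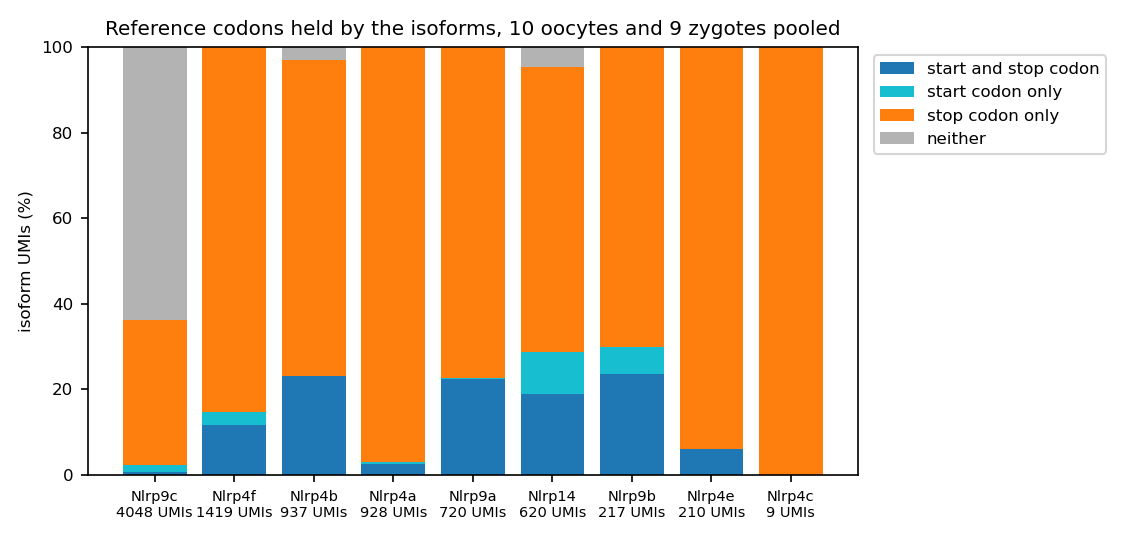
Share of the isoform UMIs of each gene (percent, oocytes and zygotes pooled, with the number of UMIs) in isoforms that hold the annotated start and stop codons, the start only, the stop only or neither. Most UMIs of every gene but Nlrp9c hold the stop codon only, and 63.7% of those of Nlrp9c hold neither.

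The start codon share did not pass the limma test in any member. From oocyte to zygote 8 members could be tested, and none was called at an adjusted p under 0.05, where 0% of 1739 genes were called in either direction; 1 of the 8, Nlrp9a, had an unadjusted p under 0.05. Its share was 27.3% ± 13.9 in 10 oocytes and 14.1% ± 12.8 in 9 zygotes (unadjusted p = 0.043 and adjusted p = 0.87 by limma). From zygote to E2C, 0 of 7 members were called and 0 had an unadjusted p under 0.05, while 11.6% of 1305 genes were called lower and 0.153% higher. Nlrp14 was at 30.4% ± 16.1 in 8 zygotes and 22.8% ± 19.1 in 5 E2C embryos, and Nlrp4f at 13.9% ± 6.82 and 11.4% ± 7.85.

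Levels of single isoforms were tested over 29409 isoforms, 111 of them of these genes. From oocyte to zygote 2 were called higher (1.16% of all isoforms) and 2 lower (0.32%). The higher ones, both of Nlrp14, were PB.68649.89, with 9 exons, the stop codon and no start codon (1.33 ± 1.15 to 4.39 ± 3.33 copies, log2 fold change +1.204, limma adjusted p = 0.0045), and PB.68649.127, with 6 exons (0.487 ± 0.699 to 1.96 ± 1.58 copies, +1.006, limma adjusted p = 0.0079). The lower ones hold the whole coding sequence of their gene: PB.66057.5 of Nlrp9a, which has the junctions of Nlrp9a-202 (4.35 ± 2.88 to 1.80 ± 1.58 copies, -1.02, limma adjusted p = 0.039), and PB.65239.8 of Nlrp4b, which has those of Nlrp4b-201 (3.57 ± 2.37 to 1.58 ± 1.63 copies, -1.01, limma adjusted p = 0.028). With run as a block all 4 calls were lost. The log2 fold change was then +0.93 for PB.68649.89 and +0.84 for PB.68649.127, and -1.07 for PB.66057.5 and -0.88 for PB.65239.8 (limma adjusted p = 0.25, 0.21, 0.31 and 0.47). PB.68649.127 and PB.65239.8 were named after their values were seen, and the calls of PB.66057.5 and PB.65239.8 were lost without array weights.

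From zygote to E2C 18 isoforms were called higher (2.23% of all isoforms) and 1 lower (2.94%). Of the 18, 9 were of Nlrp9b, which had 10 isoforms tested, 3 of Nlrp9c, 2 each of Nlrp4e and Nlrp9a and 1 each of Nlrp4a and Nlrp14. Among them were both leading isoforms of Nlrp9b: PB.65775.48, which lacks the start codon, went from 1.10 ± 0.789 to 5.51 ± 1.29 copies (+1.72, limma adjusted p = 2.7e-05), and PB.65775.6, which holds the whole coding sequence in 11 exons, from 0.827 ± 0.940 to 3.43 ± 3.84 copies (+1.09, limma adjusted p = 0.062). The gene-level change of Nlrp9b was thus spread over isoforms with and without the start codon. The isoform called lower was PB.66058.150 of Nlrp9c, named after its values were seen, with 1.83 ± 1.40 copies in zygotes and 0.334 ± 0.746 at E2C.

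From E2C to L2C 81 of the 111 isoforms were called lower (13.1% of all isoforms) and 0 higher (12.9%). By limma 0 of the 111 were higher at an unadjusted p under 0.05, and no other tool was run on isoforms. All 10 tested isoforms of Nlrp9b, 13 of 15 of Nlrp9a, 11 of 15 of Nlrp4a, 9 of 12 of Nlrp14, 8 of 10 of Nlrp4f, 7 of 10 of Nlrp4b, 6 of 8 of Nlrp4e and 17 of 31 of Nlrp9c were among them. From L2C to 4-cell PB.66058.142 of Nlrp9c alone was called, and lower (1.68% of all isoforms, with 2.61% higher). No isoform of these genes was called by limma from 4-cell to 8-cell (3.63% of all isoforms higher, 4.3% lower) or from 8-cell to 16-cell (1.05% and 0.921%), and 0 had an unadjusted p under 0.05. Within genes, no isoform share was called from oocyte to zygote (0% of 32389 isoforms; 13 of 181 of these genes had an unadjusted p under 0.05). From zygote to E2C 1 was called lower, where 0.493% were called lower and 0.554% higher: PB.68649.5 of Nlrp14, with the start codon and no stop codon, at 1.99% ± 1.62 of the gene in 8 zygotes and 0 in 5 E2C embryos (limma adjusted p = 0.041). It rested on 6 UMIs in all zygotes.

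Nlrp9c had transcripts with 2 main 3′ ends, and the 3′ ends of the other genes were not grouped. Its 2 leading isoforms in oocytes and zygotes were PB.66058.142, with the junctions of the noncoding transcript Nlrp9c-204 (3 exons, 1345 bases, neither codon, 2091 UMIs), and PB.66058.40 (7 exons, 1333 bases, stop codon only, 910 UMIs). The first ends at the annotated 3′ end of Nlrp9c-204, chr7:26377150, here called proximal. The other ends at that of the coding Nlrp9c-202, chr7:26364691, here called distal and 12459 bases further along the minus strand. The last 30 bases before each end are shown with the AATAAA hexamer, the usual polyadenylation signal, in capitals.
Nlrp9c-204, chr7:26377150-26377179 (-): ataaAATAAAtgtttatttattttcctacc
Nlrp9c-202, chr7:26364691-26364720 (-): cattaAATAAAcactaagcatgtttgaaaa

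Of the 43 isoforms of Nlrp9c, 17 ended within 100 bases of the proximal end, 19 within 100 bases of the distal end and 7 elsewhere. In oocytes the proximal end took 61.3% to 75.6% of the UMIs of the gene (median 69.5%, 1783 UMIs in all), in zygotes 42.3% to 75.5% (median 54.4%) and in E2C embryos 40.1% to 43.8% (median 42.2%). In L2C embryos it took 81.8% to 100% (median 87.9%, 79 UMIs in all). The E2C embryos thus lay below all oocytes and all L2C embryos, and how many other genes behave so was not computed. In later embryos, with 28 to 58 UMIs at a stage, the share was 50% to 100%.

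The mean levels of the ends crossed between zygote and E2C and again by L2C. The proximal end was at 86.0 ± 18.7 copies in oocytes, 74.9 ± 10.1 in zygotes and 75.3 ± 6.23 at E2C, whereas the distal end was at 35.3 ± 10.6, 51.6 ± 19.3 and 98.6 ± 8.54. At L2C the proximal end held 20.8 ± 16.6 copies and the distal end 2.63 ± 2.82. This grouping by 3′ end was made after the isoform values had been seen, so it carries no test.

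The isoforms behind it can be read one by one. PB.66058.142 was at 45.8 to 100.5 copies in oocytes (median 70.0), 45.7 to 73.2 in zygotes (median 64.9) and 73.0, 53.2, 58.0, 65.6 and 64.5 in E2C embryos. PB.66058.40 was at 10.97 to 32.4 copies in oocytes (median 23.6), 11.7 to 51.3 in zygotes (median 40.8) and 80.6, 46.5, 56.4, 63.2 and 62.0 in E2C embryos. Neither was called from oocyte to zygote (PB.66058.40 at +0.58, SE 0.269, adjusted p = 0.28 by limma) or from zygote to E2C (PB.66058.40 at +0.91, SE 0.386, adjusted p = 0.19 by limma). From E2C to L2C both were called lower, PB.66058.40 by -4.95 (SE 0.511) and PB.66058.142 by -2.10 (SE 0.440), with limma adjusted p-values of 1.1e-11 and 1.2e-04. The difference between these changes was not tested.

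**Figure D4:**
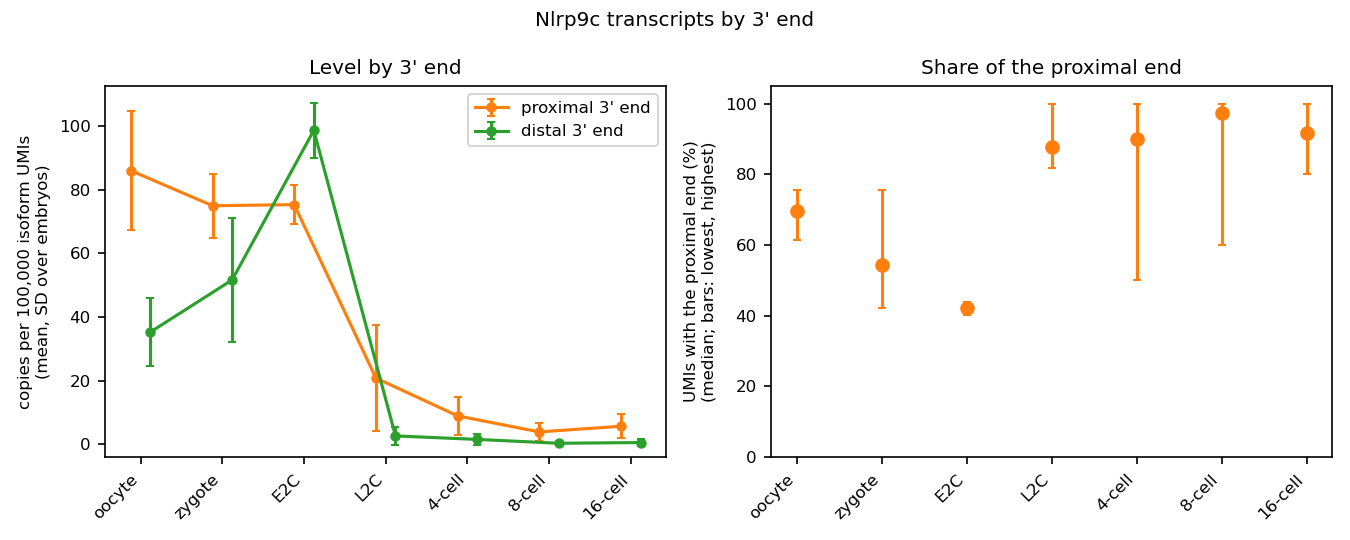
Share of Nlrp9c isoform UMIs that end at the proximal 3′ end (percent) by stage, over the oocytes, zygotes or embryos of each stage. The 5 E2C embryos lie between 40.1% and 43.8%, the 10 oocytes between 61.3% and 75.6%, the 6 L2C embryos between 81.8% and 100%, and zygotes spread from 42.3% to 75.5%.

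A separate run, deposited as whole UMI counts per isoform, covered oocytes in parts: 4 columns carry only the name oocyte and were read as intact cells, 6 are 1/2 oocytes and 6 are 1/4 oocytes. The names do not say which parts came from the same oocyte, so no test was run. Depth was 182596 to 281036 UMIs in intact oocytes, 129744 to 289774 in 1/2 oocytes and 137231 to 275297 in 1/4 oocytes. Nlrp4f was the most abundant member here, at 122 to 184 copies per 100,000 in intact oocytes (157 ± 26.2), 141 to 205 in 1/2 oocytes (168 ± 22.6) and 126 to 187 in 1/4 oocytes (160 ± 21.6). Nlrp9c followed with 99.4 ± 5.98, 104.7 ± 8.69 and 92.6 ± 12.7 copies. For each of the 9 genes the ranges of intact, 1/2 and 1/4 oocytes overlapped.

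The rank order of the 9 genes in the intact oocytes followed that of the isoform table of the 10 oocytes described above (Spearman's rho 0.967 over 9 genes, which are not replicates; the tables were normalized separately). Nlrp4f and Nlrp9c changed places, as did Nlrp4e and Nlrp9b. The start codon share was 49.8% for Nlrp4f, 57.4% for Nlrp14 and 18.0% for Nlrp9c in intact oocytes of the separate run, against 14.6%, 29.6% and 2.52% pooled over the 10 oocytes. It was 29.5% against 29.2% for Nlrp9a and 0 in both for Nlrp4c. Across the parts the genes varied. Nlrp4f had 50.3% and 48.3% in 1/2 and 1/4 oocytes, Nlrp14 46.3% and 41.0%, and Nlrp9b 53.3% in intact oocytes, 43.4% in 1/2 and 37.6% in 1/4 oocytes, from 60 to 93 UMIs. The proximal 3′ end of Nlrp9c took 60.2% to 75% of its UMIs in intact oocytes, 69.8% to 82.3% in 1/2 oocytes and 67.8% to 80.7% in 1/4 oocytes. The 10 oocytes above spanned 61.3% to 75.6%.

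**Figure D5:**
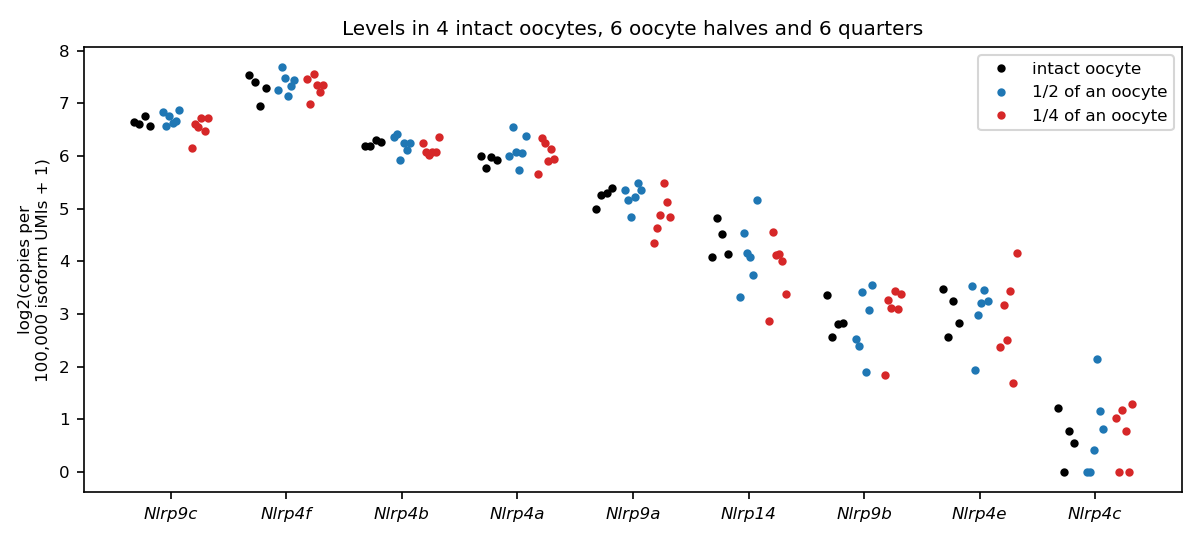
Copies per 100,000 UMIs of each of the 9 genes in the separate run, with 1 point for each intact oocyte (4), 1/2 oocyte (6) and 1/4 oocyte (6). The ranges of the groups overlap for every gene, with Nlrp4f (157, 168 and 160 copies on average) above Nlrp9c (99.4, 104.7 and 92.6).

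Over the 43 oocytes, zygotes and embryos, the levels of Nlrp4a, Nlrp4b, Nlrp4e, Nlrp4f, Nlrp9a, Nlrp9b and Nlrp9c were correlated with each other at Pearson's r of 0.855 to 0.951 on the log2 scale, Nlrp14 with these at 0.721 to 0.848 and Nlrp4c with the others at 0.436 to 0.557. These points share stage and depth. The gene outside the family most like each member was Oog4 for Nlrp4a (r = 0.967, rho = 0.842), Gm28784 for Nlrp4b (0.970 and 0.899), Bmp15, an oocyte-secreted growth factor, for Nlrp4e (0.942 and 0.932), Gm13084 for Nlrp4f (0.970 and 0.873) and for Nlrp9c (0.974 and 0.920), Ifitm6 for Nlrp9a (0.961 and 0.882), Gm13089 for Nlrp9b (0.946 and 0.931), 1700018B24Rik for Nlrp14 (0.916 and 0.911) and Dgkh for Nlrp4c (0.668 and 0.593).

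Other NLR genes were few in these cells. Of 20 listed, 13 were in the table and 6 passed the filter on low values. None of the 6 was called from oocyte to zygote or from zygote to E2C, and 4 were called lower from E2C to L2C (median -1.25), against 22.8% of all genes. Nlrp5, a core protein of the subcortical maternal complex of oocytes, went from 22.4 ± 5.48 to 2.30 ± 1.92 copies (-2.81, adjusted p = 1.4e-07 by limma), and Nlrp2, another maternal member, from 7.08 ± 3.49 to 1.98 ± 2.05 (-1.89, adjusted p = 3.0e-05 by limma). Nlrc4 and Naip1, partners in an inflammasome that senses bacterial proteins, stood at 2.36 ± 1.015 and 1.198 ± 0.968 copies at E2C and were also called lower. Nlrp3, the best known inflammasome sensor, had 0 UMIs in oocytes and E2C embryos, which allows up to 0.148 and 0.354 copies per 100,000.

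Among 16 genes of inflammasome partners and products, 12 were in the table and 7 were tested. Casp8, an initiator caspase, was called higher from oocyte to zygote (1.33 ± 0.866 to 4.80 ± 4.55 copies), against 2.92% of all genes. Txnip, a thioredoxin-binding protein, and Ninj1, which ruptures the membrane of dying cells, were called lower from zygote to E2C (64.7 ± 36.9 to 10.4 ± 5.78 and 95.7 ± 24.3 to 36.2 ± 13.2 copies), against 2.75% of all genes. From E2C to L2C 6 of the 7 were called lower (median -1.91), against 22.8% of all genes (median 0.03). Pycard, the adaptor of Nlrp inflammasomes, had 4 UMIs in all oocytes, Casp1 had 1 and Aim2 none.

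In the subcortical maternal complex, which anchors maternal proteins under the cell membrane, all 7 listed genes were tested. Ooep and Tle6 were called higher from oocyte to zygote (15.8 ± 8.36 to 68.6 ± 50.6 and 10.2 ± 6.06 to 22.3 ± 10.3 copies), against 2.92% of all genes. Tle6 was called lower from zygote to E2C, against 2.75%. For Ooep, Tle6, Casp8 and Dnmt1, values with run as a block are not given. Nlrp2, Nlrp5, Ooep and Zbed3 were called lower from E2C to L2C (4 of 7, median -1.89, against 22.8% of all genes), Zbed3 from 969 ± 202 to 39.3 ± 32.1 copies. Of 5 genes listed as partners of Nlrp14 or of maternal DNA methylation, the maintenance methyltransferase gene Dnmt1 was called higher from oocyte to zygote (11.6 ± 5.58 to 26.7 ± 11.7 copies) and lower to E2C (8.80 ± 1.87). These calls stood against 2.92% of all genes higher and 2.75% lower. Uhrf1, whose protein recruits Dnmt1, was 28.7 ± 6.50, 30.1 ± 4.66 and 17.3 ± 5.67 copies in oocytes, zygotes and E2C embryos and was called lower at L2C (1.23 ± 1.27, -3.08, adjusted p = 1.3e-10 by limma). The sodium-calcium exchanger gene Slc8b1 was called higher there, from 0 to 2.70 ± 2.80 copies.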

How the data were processed

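From circular consensus reads with barcodes and UMIs, the authors mapped cDNA to mm10 (minimap2), gave each read a gene (gffcompare) and merged like reads into isoforms (cDNA_Cupcake), which SQANTI3 classed and filtered. Isoforms in fewer than 5 cells were dropped. The deposited gene and isoform tables hold CPM divided by 10, that is, copies for each 100,000 UMIs in the cell. The deposited values of the stages other than 8-cell, 16-cell and 32-cell were treated as a score in that same unit. The values of all stages went through the same steps. The fourth run was deposited as whole UMI counts, scaled here to 100,000 UMIs. Within a tolerance of 0.1, 100% of values above 0 came out as whole UMIs. edgeR 4.0.16 on these UMIs (quasi-likelihood test) called 469 genes from oocyte to zygote and 789 from zygote to E2C.

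Stage and embryo were read from column names, since the sample labels describe runs only. The run of oocytes and zygotes was taken as the number after each barcode in the study's cell lists. No sample label ties a cell to a run. The 7 stages from oocyte to 16-cell were fitted together by limma 3.58.1 (trend, array weights) on log2(copies + 1) in R 4.3.3. Features needed at least 1 copy in at least 4 embryos, and were called at an absolute log2 fold change over 1 and p under 0.01. Shares of a gene's UMIs (at least 5 UMIs in at least 4 embryos of both stages) were tested by limma on the arcsine square root without weights, called at an adjusted p under 0.05. The isoform names give no full-length class, so the share of isoforms holding the annotated start codon (GENCODE, longest coding transcript) was used in its place. DESeq2 1.42.0 was an alternative. Other values came from Python 3.11.15 with numpy 2.4.6, pandas 2.3.3, scipy 1.17.1 and Biopython 1.88, and drawings from matplotlib 3.10.9. 

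The members and gene lists were chosen with earlier results of these data known. All 10 members were named; isoforms were named as the leading pair of each member in oocytes and zygotes and those called in isoform shares, and others were named after their values were seen. The alternatives were other pseudocounts, filters, weights, sums over cells or isoforms, count models and each E2C, 4-cell, 8-cell or 16-cell embryo left out. Within-run fits, run as a block for isoforms and leaving out L2C embryo 1 were added after seeing the data. The fit with run as a block covers oocytes and zygotes only, since the run of later embryos is not known here.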

Additional observations from a re-analysis of the deposited data

Results flagged for a closer look

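In 90 groups of 4 to 10 oocytes, embryos or oocyte parts, 16 had an extreme value far from the others by Dixon's test. For normally distributed values chance alone flags about 1 in 20 groups, a rate that does not hold for counts near 0. Of the 16 values 12 lie at stages from L2C to 16-cell, and 7 of these rest on 1 UMI and the others on 2 to 6: Nlrp4b at 3.65 copies in 1 L2C embryo and 0.622 in 1 4-cell embryo, Nlrp4c at 2.35 in 1 L2C embryo, Nlrp4e at 0.923 in 1 4-cell embryo and 0.335 in 1 8-cell embryo, Nlrp4f at 3.30 in 1 4-cell embryo and 2.173 in 1 8-cell embryo, Nlrp9a at 2.81 in 1 8-cell embryo, Nlrp9b at 0.736, 0.381 and 0.175 in 1 L2C, 1 8-cell and 1 16-cell embryo, and Nlrp14 at 1.16 in 1 8-cell embryo. Of these groups, 8 had 0 copies in all other embryos, and such a group is always flagged.

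At higher levels, E2C embryo 1 had 47.1 copies of Nlrp9a against 33.9 in the next embryo. One oocyte had 2.40 copies of Nlrp4c, and the next 1.17. In the separate run one 1/2 oocyte had 3.45 copies of Nlrp4c, and one 1/4 oocyte had 2.61 copies of Nlrp9b where the next lowest had 7.54.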

How the results depend on the processing

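Counts of calls at low levels depended most on the settings, and the cause was not tested unless stated. From oocyte to zygote 379 genes were called, 1325 with a pseudocount of 0.1, 758 with 0.5, 187 with run as a block and 94 in run 3 alone, where fewer samples enter; the 1 member called became 0 with run as a block and in run 3 alone. From zygote to E2C 849 genes were called, 1359 with a pseudocount of 0.5 (805 to 977 leaving out 1 embryo), and the 2 members called became 1 with a pseudocount of 0.1 and by edgeR (1 to 2 leaving out 1 embryo). From L2C to 4-cell 782 genes were called, 1183 without array weights, 473 by DESeq2 and 485 with isoforms summed (430 without 4-cell embryo 4, 477 without embryo 5, at most 902). The 1 member called lower there became 2 with a pseudocount of 0.5, a filter of 5 copies, edgeR or DESeq2, 3 without weights and 0 with isoforms summed (0 to 2 leaving out 1 embryo). From 4-cell to 8-cell the members called higher went from 0 to 1 with a pseudocount of 0.1 and without weights, and those called lower from 0 to 1 with a pseudocount of 0.1. From 8-cell to 16-cell 393 genes were called, 260 with a filter of 5 copies, 261 by edgeR and 203 by DESeq2 (319 to 582 leaving out 1 embryo). For isoforms, 435 were called from oocyte to zygote, 1829 with a pseudocount of 0.1 and 234 with run as a block. Of the members' isoforms 2 were called higher there, 16 with a pseudocount of 0.1, 1 without the filter or without weights and 0 with run as a block, and 2 lower, 0 without the filter, without weights or with run as a block. From zygote to E2C 1 was called lower, 2 with a pseudocount of 0.1 (1 to 2 leaving out 1 embryo). From L2C to 4-cell 1262 isoforms were called (726 to 1616 leaving out 1 embryo) and 1 of the members (0 with a pseudocount of 0.1, 0 to 1 leaving out 1 embryo), and from 8-cell to 16-cell 580 (522 to 1028). Start codon shares from zygote to E2C were called in 154 genes (57 without E2C embryo 2, 73 without embryo 3, at most 222). Isoform shares from oocyte to zygote went from 0 called to 2 with at least 10 UMIs per embryo. The 1 member isoform share called from zygote to E2C became 0 on the untransformed scale and with at least 10 UMIs per embryo (0 to 1 leaving out 1 embryo, 0 without E2C embryo 1, 2 or 3). Thinning to 5000 UMIs took the share of cells with Nlrp9c from 88.2% to 33.0% at 4-cell, 65.4% to 21.2% at 8-cell, 68.4% to 26.7% at 16-cell, 36.4% to 8.64% at 32-cell and 100% to 33.9% in blastocysts, and with Nlrp4c from 61.5% to 12.02% in blastocysts.

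Of 719 alternative values of single genes up to the 4-cell stage, of Nlrp4b and Nlrp14 from 4-cell to 8-cell and of single isoforms, 645 kept their direction and side of the limit, 56 lost their call and 12 gained one: 7 of Nlrp4f (-2.15 to -1.13) and 1 of Nlrp14 from L2C to 4-cell, 2 of Nlrp4b and 1 of Nlrp14 from 4-cell to 8-cell and 1 of Nlrp9a from zygote to E2C (1.002 with isoforms summed). The other 6 turned, all from oocyte to zygote in genes not called: Nlrp4a (-0.014 by DESeq2, -0.064 in run 1 alone), Nlrp9c (-0.042 and -0.17 likewise), Nlrp4b (0.078 in run 3 alone) and Nlrp9b (-0.30 in run 3 alone). The share of called genes that were higher moved by over 10 percentage points from zygote to E2C (62.2%, and 40.8% by edgeR), L2C to 4-cell (36.1%, 49.0% by DESeq2 and 66.6% with isoforms summed), 4-cell to 8-cell (29.8%, 50.9% by edgeR and 42.2% by DESeq2) and 8-cell to 16-cell (56.5%, 74.7% by edgeR, 66.8% with a pseudocount of 0.1 and 42.0% without 16-cell embryo 1). No paired analysis was possible because the columns carry no number that ties samples across stages. Depth limits the later stages, where 1 UMI is worth several copies.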
